A study of Mus musculus with 5 samples.

Results

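Atp1b1 and Fxyd2 are 2 subunits of the sodium pump (Na,K-ATPase), and their counts were followed along the nephron in mouse kidney and in the obstructed kidney. The 2 genes were taken by name, and both were listed among the 19713 genes of the healthy table and the 21516 genes of the UUO table. The study profiled kidney with several droplet methods, 1 library per group, so no difference has a replicate check. Intervals given here are 95% intervals for counting error only. The groups were 10x nuclei of a kidney 14 days after UUO (unilateral ureteral obstruction), 10x nuclei of healthy kidney, DroNc-seq and sNucDrop-seq nuclei of healthy kidney, and Drop-seq whole cells of healthy kidney. The labels give C57BL/6 as the strain in the dissociation protocol for cells and give no age, sex or number of animals, and no sham-operated kidney is among the groups. UUO stops urine flow on one side and is used as a model of fibrosis.

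The sodium pump moves sodium out of the cell and potassium in at the basolateral membrane of tubule cells, and the gradient it makes drives sodium entry from the urine. A working pump needs a catalytic alpha subunit and a beta subunit such as Atp1b1 that is required for folding and delivery to the membrane. Small FXYD proteins tune the pump, and Fxyd2 (the gamma subunit) is the one best known from the proximal tubule, thick ascending limb and distal convoluted tubule. Thick limb and distal convoluted tubule are known for high pump activity, and mutations of human FXYD2 cause a renal loss of magnesium.

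In mm10 with GENCODE M21, Atp1b1 lies at chr1:164437109-164458355 on the minus strand with 4 annotated transcripts, and Fxyd2 at chr9:45399669-45410278 on the plus strand with 13. The last 617 bases of Atp1b1 overlap the last bases of Nme7 (chr1:164304121-164437725), which runs on the opposite strand. The sources used here do not say whether strand was used in counting. Nme7 had 331 counts in UUO tubule nuclei (50.5 CPM, its UMI counts scaled to the UMI total of the same nuclei) and 215 in healthy 10x tubule nuclei (77.8 CPM), and Atp1b1 284 (43.3 CPM) and 734 (266 CPM) in the same sums. Reads of the 2 genes cannot be told apart where strand was not used, and in UUO the Nme7 level was near that of Atp1b1.

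For Atp1b1, RefSeq (GRCm38.p6) gives the 250 bases before the start, at chr1:164458356-164458605 on the minus strand, shown because Atp1b1 was the only one of the 2 members with an entry in the table. Capitals mark every match, on either strand, to 1 of 7 short words, among them the CCAAT box, the GC box word GGGCGG and the TATA words.
Atp1b1: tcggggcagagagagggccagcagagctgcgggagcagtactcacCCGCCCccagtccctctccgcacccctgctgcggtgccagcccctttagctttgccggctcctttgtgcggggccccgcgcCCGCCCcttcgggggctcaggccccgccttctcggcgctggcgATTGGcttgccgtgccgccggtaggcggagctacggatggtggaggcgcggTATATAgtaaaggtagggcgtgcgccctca
The window held 1 CCAAT match (as its reverse complement, at -81 from the start), 2 GGGCGG matches (at -205 and -124) and 1 TATATA match (at -30). Among 32851 such windows, 33.8% held CCAAT, 32.7% GGGCGG and 5.25% TATATA. The word TATAAA, held by 12.4% of windows, was not in these letters. Nor were TGACGT (6.47% of windows), TGTTCT (16.1% of windows) or GTTAAT (6.43% of windows).

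The UUO library held 6147 nuclei and 7411036 UMIs, the healthy 10x library 2084 nuclei and 2947137 UMIs, and the other healthy libraries 2769 to 3531 barcodes with 4630236 to 6872118 UMIs. Median UMIs per barcode ran over 1055 to 1630. Cell classes are the authors' labels, summed to 7 tubule classes plus podocyte, endothelium and others. In the 10x libraries, tubule marker lists were highest in their own class with 2 exceptions. Principal cell markers (Aqp2, Aqp3, Scnn1g, Hsd11b2) in UUO had 74.5 CPM in nuclei of that label and 188 CPM in the connecting tubule. The 3 healthy 10x nuclei labelled macrophage had no counts of 4 macrophage markers and 14136 CPM of proximal tubule markers, above the 12980 CPM of the proximal tubule itself, and are not used. Markers of tubule classes were also counted in other classes. Thick limb markers had 177 CPM in UUO endothelium and 6947 CPM in healthy 10x endothelium. In the other healthy 10x tubule classes they ran from 1054 CPM in the connecting tubule to 4050 CPM in the distal convoluted tubule. Proximal tubule markers had 130 CPM in UUO endothelium and 1607 CPM in healthy 10x endothelium. Free RNA, doublets and mixed labels were not tested as sources. Levels of both members in tubule are therefore given beside those of endothelium and podocyte, which are not known for reabsorbing sodium. Endothelium's own markers had 3087 CPM in UUO endothelium and 2457 CPM in healthy 10x endothelium, where thick limb markers were higher. The endothelial part of this reference is thus not free of tubule transcripts.

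In healthy kidney Atp1b1 was higher in the ascending limb, the distal convoluted tubule and the connecting tubule than in the proximal tubule, by more than the counting interval in each of the 4 healthy libraries. In healthy 10x nuclei it had 391 CPM in the ascending limb (254 counts), 373 CPM in the distal convoluted tubule (100 counts), 311 CPM in the connecting tubule and 199 CPM in the proximal tubule (236 counts). DroNc-seq nuclei had 1469, 1109, 1147 and 744 CPM in the same 4 classes, sNucDrop-seq nuclei 1746, 1346, 1365 and 1096 CPM, and Drop-seq cells 6064, 6655, 8609 and 2374 CPM. The ascending limb was highest in the 3 nucleus libraries and the connecting tubule in Drop-seq cells. The distal convoluted tubule was above the proximal tubule by a log2 ratio of 0.91 (0.55 to 1.25) in healthy 10x, 0.57 (0.40 to 0.74) in DroNc-seq, 0.30 (0.11 to 0.47) in sNucDrop-seq and 1.49 (1.42 to 1.55) in Drop-seq. Only in Drop-seq did that pass 2-fold, where 14.7% of genes were at least 2-fold higher in the distal convoluted tubule. Ascending limb over proximal tubule came to 0.98 in healthy 10x and in DroNc-seq, 0.67 in sNucDrop-seq and 1.35 in Drop-seq.

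Collecting duct cells gave less even Atp1b1 values. Principal cells stood above the proximal tubule in Drop-seq (log2 ratio 1.24, 1.09 to 1.38) and DroNc-seq (0.43, 0.15 to 0.70), and not beyond the interval in sNucDrop-seq (0.22, -0.02 to 0.46) or healthy 10x (-0.18, -0.92 to 0.48). Intercalated cells, which secrete acid or base, exceeded the proximal tubule in Drop-seq (0.56, 0.38 to 0.74) and had log2 ratios of -0.15, -0.01 and -0.14 in healthy 10x, DroNc-seq and sNucDrop-seq, each with an interval across 0. Within intercalated labels, IC-B had 2441 CPM and IC-A 4655 CPM in Drop-seq cells (log2 ratio -0.93, -1.32 to -0.55). Drop-seq held only 36 intercalated cells, and its IC-B label lay under the minimum of 20 barcodes used for the class ratios. DroNc-seq (0.04) and sNucDrop-seq (0.41) gave intervals across 0, and healthy 10x gave 179 CPM in both. The descending limb lay below the proximal tubule in DroNc-seq (-0.68, -0.99 to -0.40) and above it in sNucDrop-seq (0.41, 0.15 to 0.66), where its 1456 CPM stood above the distal convoluted and connecting tubule too.

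Ordered by deposited label, few neighbours were separated beyond counting error in the nuclei and more in Drop-seq cells. In healthy 10x nuclei none of the neighbouring labels, from LH(AL) at 391 CPM to PT(S3) at 139 CPM, differed beyond the interval for Atp1b1. In DroNc-seq LH(AL) stood above the next label, CNT (log2 ratio 0.36, 0.17 to 0.55), CD-PC above PT(S1-S2) (0.42, 0.13 to 0.69) and PT(S3) above LH(DL) (0.64, 0.34 to 0.96). In Drop-seq cells 4 of 8 neighbours were separated: CNT stood above DCT (0.37, 0.28 to 0.46), DCT above LH(AL) (0.13, 0.03 to 0.24), IC-A above PT(S3) (0.87, 0.64 to 1.10) and PT(S3) above PT(S1-S2) (0.31, 0.26 to 0.36).

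**Figure D1:**
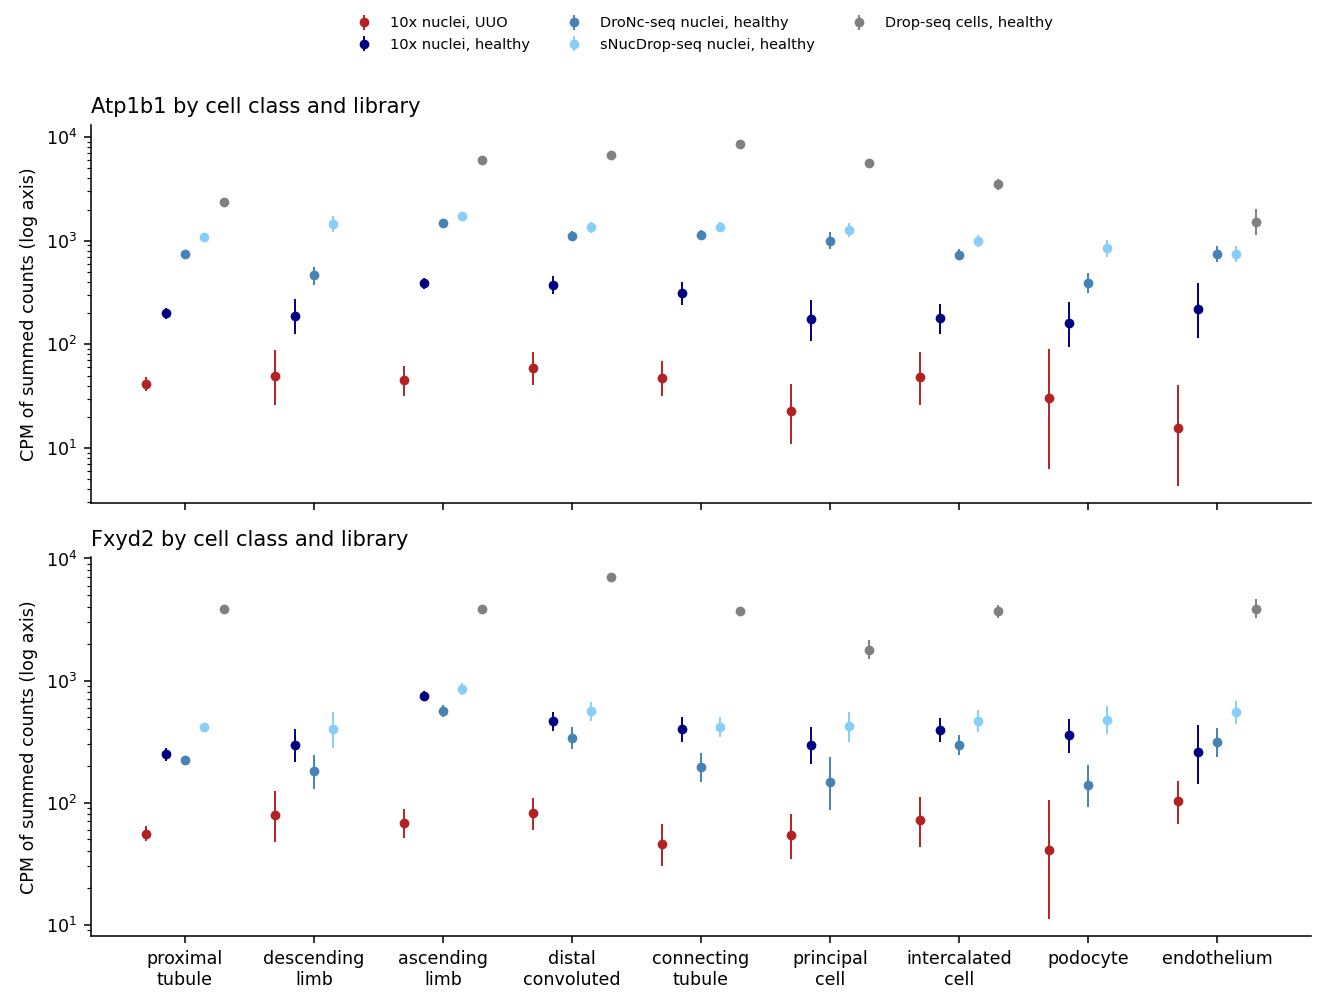
CPM of Atp1b1 (top) and Fxyd2 (bottom) in 9 cell classes, on a log axis, with 1 point per library and bars for exact Poisson intervals of the summed counts (classes of at least 20 barcodes). Both genes lie lowest in UUO in all 9 classes, and both lie highest in Drop-seq cells where those are drawn.

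Fxyd2 had another order along the nephron. It was highest in the ascending limb in the 3 healthy nucleus libraries and highest in the distal convoluted tubule in whole cells. Healthy 10x nuclei had 745 CPM in the ascending limb (484 counts), 466 CPM in the distal convoluted tubule (125 counts), 400 CPM in the connecting tubule, 392.3 CPM in intercalated cells and 248 CPM in the proximal tubule (295 counts). DroNc-seq had 564, 340, 195, 297 and 224 CPM in the same 5 classes and sNucDrop-seq 852, 560, 418, 466 and 412 CPM. LH(AL) stood above the next label, DCT, in each of these 3 libraries, by log2 ratios of 0.68, 0.73 and 0.61. Drop-seq cells had 7068 CPM in the distal convoluted tubule and 3858 CPM in the ascending limb, against 3833 CPM in the proximal tubule. There the ascending limb over the proximal tubule was 0.01 (-0.09 to 0.11), against 1.58, 1.33 and 1.05 in healthy 10x, DroNc-seq and sNucDrop-seq. The distal convoluted tubule over the proximal tubule was 0.91 (0.59 to 1.21), 0.60, 0.44 and 0.88 in healthy 10x, DroNc-seq, sNucDrop-seq and Drop-seq, all short of 2-fold. In the same order 12%, 9.5%, 10.2% and 14.7% of genes were at least 2-fold higher in the distal convoluted tubule.

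Principal cells of Drop-seq were lowest for Fxyd2, with 1794 CPM against 3833 CPM in the proximal tubule (log2 ratio -1.10, -1.36 to -0.84). In the same cells Fxyd4, the FXYD subunit of the collecting duct, had 1339 CPM and the proximal tubule 7.29 CPM. Fxyd4 was also highest in principal cells in healthy 10x (1674 CPM), DroNc-seq (410 CPM) and sNucDrop-seq (438 CPM).

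The proximal tubule was split in the healthy annotation into S3 and S1-S2, and the split gave no common direction. Atp1b1 was higher in S3 than in S1-S2 in Drop-seq (log2 ratio 0.31, 0.26 to 0.36) and sNucDrop-seq (0.32, 0.21 to 0.42), and lower in healthy 10x (-0.84, -1.25 to -0.43), with -0.06 (-0.19 to 0.08) in DroNc-seq. Fxyd2 was higher in S3 than in S1-S2 in DroNc-seq (0.48, 0.25 to 0.70) and lower in sNucDrop-seq (-0.33, -0.50 to -0.17), in healthy 10x (-0.84, -1.21 to -0.48) and slightly in Drop-seq (-0.07, -0.11 to -0.03).

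Against endothelium and podocyte of the same library, Atp1b1 in all tubule classes together was higher in every library. The log2 ratio was 1.12 (0.06 to 2.45) in UUO, 0.56 (0.03 to 1.14) in healthy 10x, 0.61 (0.41 to 0.82) in DroNc-seq, 0.59 (0.39 to 0.79) in sNucDrop-seq and 0.89 (0.51 to 1.29) in Drop-seq. In healthy 10x the Atp1b1 fold was 2.16 in the ascending limb, 2.06 in the distal convoluted and 1.73 in the connecting tubule. It was only 1.10 in the proximal tubule, 1.05 in the descending limb, 0.97 in principal and 0.99 in intercalated cells. The proximal tubule did exceed that level in sNucDrop-seq (log2 ratio 0.46, 0.27 to 0.67) and Drop-seq (0.59, 0.21 to 1.00). For Fxyd2 the intervals spanned 0 in all 5 libraries, with -0.51 (-1.05 to 0.08) in UUO, 0.34 (-0.05 to 0.76) in healthy 10x, 0.27 in DroNc-seq, -0.16 in sNucDrop-seq and 0.02 in Drop-seq. Class by class, Fxyd2 exceeded endothelium and podocyte in the ascending limb of healthy 10x (1.20, 0.79 to 1.63), DroNc-seq (1.35, 0.99 to 1.72) and sNucDrop-seq (0.72, 0.44 to 1.01). It did so in the distal convoluted tubule of healthy 10x (0.52, 0.05 to 1.01), DroNc-seq (0.62, 0.18 to 1.06) and Drop-seq (0.85, 0.61 to 1.11). In the proximal tubule Fxyd2 was below endothelium and podocyte in UUO (-0.62, -1.17 to -0.01) and sNucDrop-seq (-0.32, -0.57 to -0.07). The intervals spanned 0 in healthy 10x (-0.39, -0.81 to 0.06), DroNc-seq (0.02, -0.32 to 0.37) and Drop-seq (-0.03, -0.27 to 0.22), so a level above that of these cells was not shown there. The Drop-seq comparison rests on 20 endothelial cells and 2 podocytes. That endothelium had 2783 CPM of proximal tubule markers, against 3805 CPM in the proximal tubule, and 532 CPM of its own markers. In UUO Fxyd2 exceeded endothelium and podocyte in no tubule class (-0.90 to -0.06). That level was carried by endothelium, with 26 counts (102 CPM), while UUO podocytes had 4 counts (40.7 CPM), below all 7 tubule classes. The part of free RNA in these levels was not tested. Endothelium and podocyte held 413 nuclei with a median of 629 UMIs in UUO and 99 nuclei with a median of 1152 UMIs in healthy 10x, beside medians of 1122 UMIs in UUO tubule nuclei and 1167.5 in healthy 10x tubule nuclei.

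The gradients of the 2 genes over the 7 tubule classes were compared as a description. For Atp1b1 the Pearson r of log2 CPM between pairs of healthy libraries ran between 0.34 (Drop-seq and sNucDrop-seq) and 0.89 (Drop-seq and DroNc-seq). For Fxyd2 it was 0.86 to 0.93 among the 3 nucleus libraries and 0.20 to 0.42 between Drop-seq and each of them. Within a library Atp1b1 and Fxyd2 had r = 0.81 in healthy 10x, 0.53 in DroNc-seq, 0.61 in sNucDrop-seq and -0.16 in Drop-seq, over the same 7 classes. The Drop-seq values include the descending limb with 16 cells, under the minimum of 20 barcodes used for the class ratios. Points of 1 library share its depth and any free RNA.

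In single barcodes thinned to 500 UMIs, Fxyd2 was seen at similar shares with and without Atp1b1 in the healthy libraries. Among healthy 10x tubule nuclei Fxyd2 was seen in 20.2% (15.3 to 25.8, Clopper-Pearson) of the 238 nuclei with an Atp1b1 UMI and in 18.8% (16.9 to 20.8) of those without. In Drop-seq cells the shares were 81.6% and 83.3%, in DroNc-seq 10.6% and 10.2%, and in sNucDrop-seq 22.8% and 19.0%. In UUO 1 of 104 tubule nuclei with an Atp1b1 UMI also held Fxyd2 (0.962%, 0.02 to 5.24), against 3.09% of those without.

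Both genes were lower in UUO nuclei than in healthy 10x nuclei in all tubule classes, with log2 ratios of -3.11 to -1.87 for Atp1b1 and -3.45 to -1.91 for Fxyd2. Over all nuclei Atp1b1 had 311 counts in UUO (42.0 CPM) and 767 in healthy 10x (260 CPM), and Fxyd2 459 counts in UUO (61.9 CPM) and 1199 in healthy 10x (407 CPM), where 20.5% of genes were at least 2-fold lower. The 2-fold mark was passed downward in 7 of 7 tubule classes by each gene. Over all genes measured, the share at least 2-fold lower in UUO was 20.7% in the proximal tubule, 13.5% in the descending limb, 17.2% in the ascending limb, 14.4% in the distal convoluted tubule, 13.2% in the connecting tubule, 13.3% in principal cells and 12.4% in intercalated cells. The direction turned for Atp1b1 in all 7 classes and for Fxyd2 in the descending limb when levels were set against endothelium and podocyte of the same library, as given after the class values.

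Atp1b1 in the proximal tubule had 151 counts in UUO (41.5 CPM, 35.2 to 48.7) and 236 in healthy 10x (199 CPM, 174 to 226). The log2 ratio was -2.26 (interval -2.56 to -1.96), and 6.46% of genes had a ratio at or below it. In the ascending limb it had 38 counts in UUO (45.3 CPM) and 254 in healthy 10x (391 CPM), a log2 ratio of -3.11 (-3.64 to -2.61). The UUO interval lies below the healthy one in both classes. The other ratios of Atp1b1 were -1.92 in the descending limb, -2.65 in the distal convoluted tubule, -2.72 in the connecting tubule, -2.96 in principal cells and -1.87 in intercalated cells, all with intervals below 0.

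Fxyd2 in the proximal tubule had 202 counts in UUO (55.6 CPM, 48.2 to 63.8) and 295 in healthy 10x (248 CPM, 221 to 278), a log2 ratio of -2.16 (-2.43 to -1.90). In the ascending limb, where the healthy level was highest, it had 57 counts in UUO (67.9 CPM) and 484 in healthy 10x (745 CPM), a log2 ratio of -3.45 (-3.88 to -3.06). Only 1.68% of genes in that class had a ratio at or below it. The other Fxyd2 ratios were -1.91 in the descending limb, -2.51 in the distal convoluted tubule, -3.13 in the connecting tubule and -2.46 in both principal and intercalated cells.

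The rise of both genes in the ascending limb over the proximal tubule was smaller in UUO. The ascending limb stood at 45.3 CPM and the proximal tubule at 41.5 CPM for Atp1b1 in UUO, a log2 ratio of 0.12 (-0.43 to 0.65), against 0.98 (0.71 to 1.24) in healthy 10x. For Fxyd2 the same ratio was 0.29 (-0.16 to 0.72) in UUO and 1.58 (1.37 to 1.80) in healthy 10x. The 2 intervals do not overlap for either gene. The distal convoluted tubule over the proximal tubule came to 0.51 (-0.09 to 1.07) in UUO and 0.91 (0.55 to 1.25) in healthy 10x for Atp1b1, and to 0.55 (0.05 to 1.03) in UUO and 0.91 (0.59 to 1.21) in healthy 10x for Fxyd2, and here the intervals overlap. In UUO 10.4% of genes were at least 2-fold higher in the distal convoluted tubule than in the proximal tubule.

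**Figure D2:**
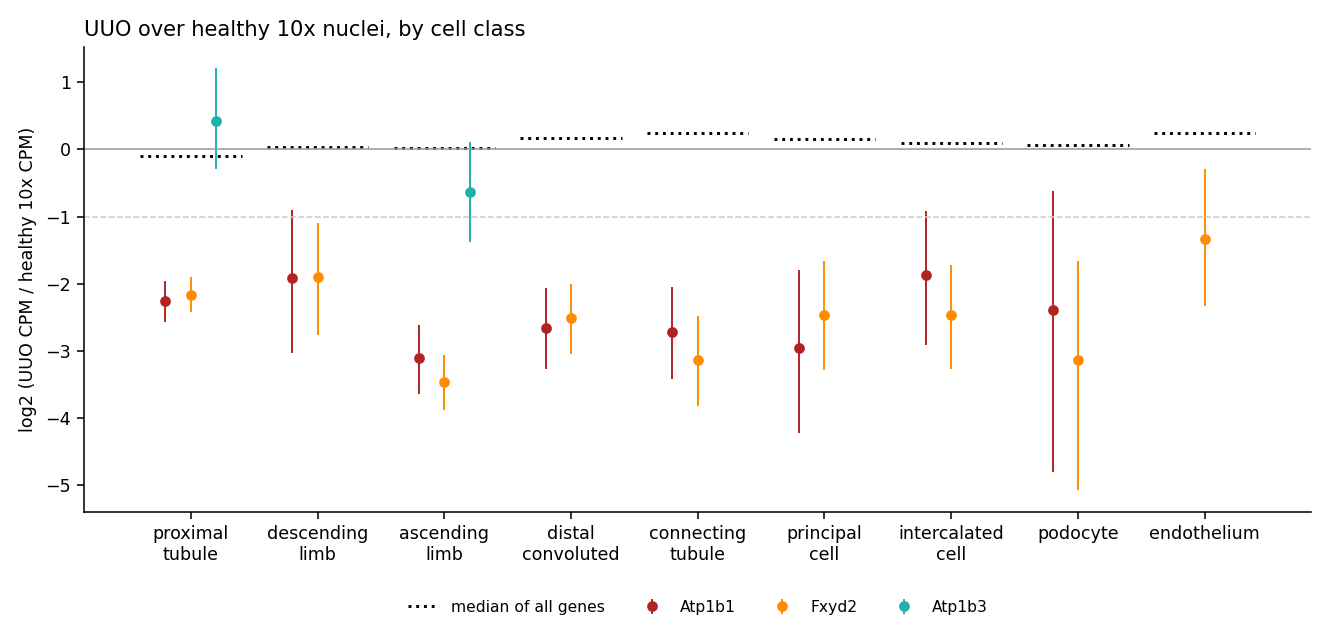
Log2 ratio of UUO over healthy 10x CPM by cell class for Atp1b1, Fxyd2 and Atp1b3, with conditional exact intervals. Dotted marks give the median of all genes, and the dashed line is the 2-fold mark. Points stand only where the 2 sums held at least 20 counts, and Atp1b1 and Fxyd2 lie below the 2-fold mark wherever they are drawn.

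Levels in endothelium and podocyte were also lower in UUO. How much of either RNA these cells make themselves was not tested. Atp1b1 in these 2 classes together had 7 counts in UUO (19.9 CPM) and 30 in healthy 10x (181 CPM), and Fxyd2 30 counts in UUO (85.2 CPM) and 54 in healthy 10x (325 CPM). Singly, Fxyd2 had UUO over healthy 10x ratios of -1.34 in endothelium and -3.13 in podocyte, where 11.7% and 15.9% of genes were at least 2-fold lower. Set against this level within each library, the proximal tubule held 2.09 times as much Atp1b1 in UUO and 1.10 times as much in healthy 10x, so the sign of the UUO difference turned to 0.92 (-0.30 to 2.15) on the log2 scale. On that scale all 7 classes had an Atp1b1 difference above 0, from 0.074 to 1.31, each with an interval across 0 that rests on the 7 UUO counts. For Fxyd2 the ascending limb kept a difference of -1.52 (-2.28 to -0.77) and the connecting tubule -1.20 (-2.10 to -0.29), while the other 5 classes ran from -0.58 to 0.026 with intervals across 0. Over all tubule classes the difference was 0.57 (-0.64 to 1.77) for Atp1b1 and -0.85 (-1.52 to -0.19) for Fxyd2. This scale was chosen after seeing the data. The part of free RNA in the UUO difference was not tested.

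**Figure D3:**
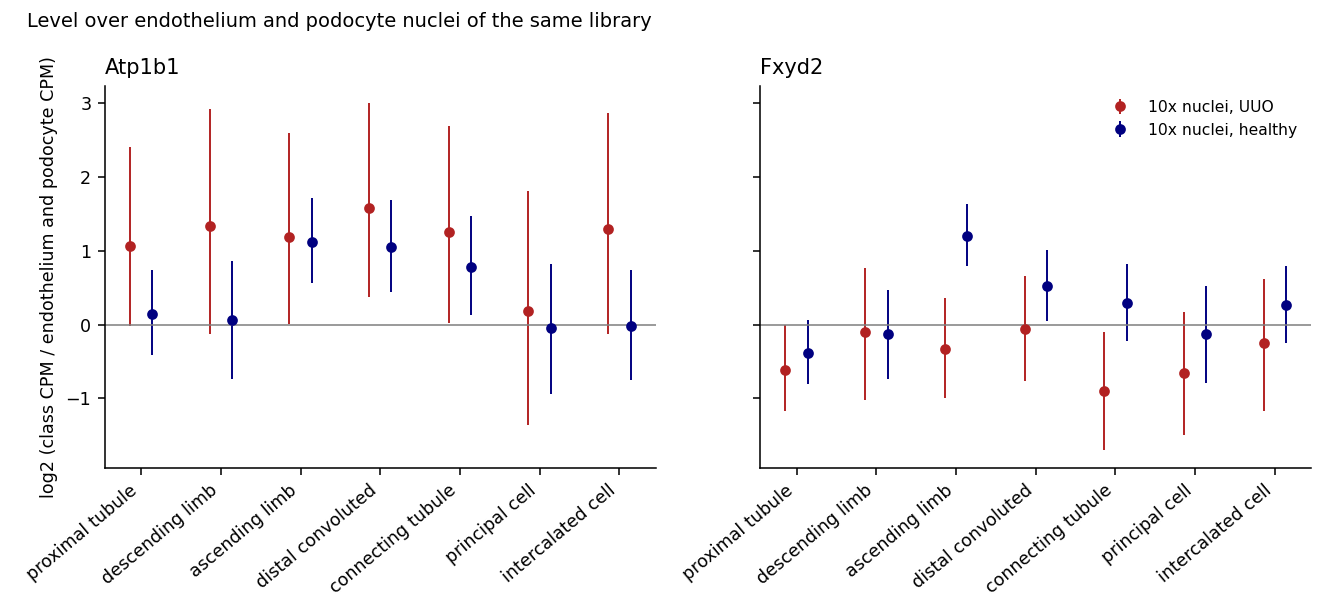
Log2 ratio of each tubule class over endothelium and podocyte nuclei of the same library, for Atp1b1 (left) and Fxyd2 (right), in UUO and healthy 10x, with conditional exact intervals. Fxyd2 in the ascending limb is at -0.33 in UUO and 1.20 in healthy 10x, and Atp1b1 in the proximal tubule is at 1.06 in UUO and 0.14 in healthy 10x.

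Shares of nuclei with a UMI followed the same direction at equal depth. In a separate random draw of 500 UMIs per nucleus, Atp1b1 was seen in 1.96% (1.59 to 2.39) of 4799 UUO tubule nuclei and 12.6% (11.1 to 14.2) of 1843 healthy 10x tubule nuclei. Fxyd2 was seen in 3.46% (2.96 to 4.02) of the UUO and 19.5% (17.7 to 21.4) of the healthy 10x nuclei. Shallower nuclei left out numbered 361 in UUO and 123 in healthy 10x. Unthinned, the shares were 5.21% in UUO and 27.7% in healthy 10x for Atp1b1, and 6.82% in UUO and 38.8% in healthy 10x for Fxyd2. Endothelium and podocyte, thinned alike, gave 1.18% in UUO and 6.32% in healthy 10x for Atp1b1, and 1.57% in UUO and 13.7% in healthy 10x for Fxyd2. The thinned Fxyd2 interval of UUO tubule nuclei overlaps that of UUO endothelium and podocyte (0.43 to 3.97).

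The UUO annotation names proximal states beside S1, S2 and S3. PT(S1) was highest of them for both genes, with 79.4 CPM of Atp1b1 (31 counts) and 97.3 CPM of Fxyd2 (38 counts). PT(S3) had 33.6 CPM of Atp1b1 and 40.1 CPM of Fxyd2, and PT(S1) over PT(S3) came to log2 ratios of 1.24 (0.44 to 2.05) and 1.28 (0.56 to 2.01). Nuclei labelled Dediff. PT had 2 counts of Atp1b1 (10.3 CPM) and 9 of Fxyd2 (46.3 CPM), and PT(S1) exceeded them in Atp1b1 by 2.95 (0.97 to 6.06) and in Fxyd2 by 1.07, with an interval that reached 0. Nuclei labelled Prolif. PT had 6 counts of each gene (27.7 CPM), below PT(S1) by intervals clear of 0 in both. PT(S2) had 41.8 CPM of Atp1b1 and 57.3 CPM of Fxyd2. Over PT(S2), Dediff. PT came to -2.02 (-5.09 to -0.13) for Atp1b1 and -0.31 (-1.47 to 0.67) for Fxyd2. Prolif. PT over PT(S2) came to -0.59 (-2.08 to 0.59) for Atp1b1 and -1.05 (-2.52 to 0.12) for Fxyd2, both with intervals across 0. Compared through the label that both annotations share, PT(S3), UUO over healthy 10x was -2.05 for Atp1b1 and -2.12 for Fxyd2, where 18.5% of genes were at least 2-fold lower.

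Atp1b3, another beta subunit, stayed short of 2-fold in the classes where it was measured. It had 22.6 CPM in UUO and 16.8 CPM in healthy 10x in the proximal tubule (0.42, -0.30 to 1.21) and 35.8 CPM in UUO and 55.4 CPM in healthy 10x in the ascending limb (-0.63, -1.38 to 0.11). Its ratio in the proximal tubule is clear of the Atp1b1 interval. Among the other genes of the pump family, Atp1a4, Atp1b2, Fxyd1, Fxyd3, Fxyd6 and Fxyd7 were listed at 0 in healthy 10x and have no fold. Over all nuclei, Atp1b4 had 11 counts in UUO and 8 in healthy 10x, under the 20 counts needed for a ratio. These counts come from 7411036 UMIs in UUO and 2947137 in healthy 10x. Fxyd5 had 50 counts in UUO (6.75 CPM) and 14 in healthy 10x (4.75 CPM), a log2 ratio of 0.51 (-0.37 to 1.48).

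**Figure D4:**
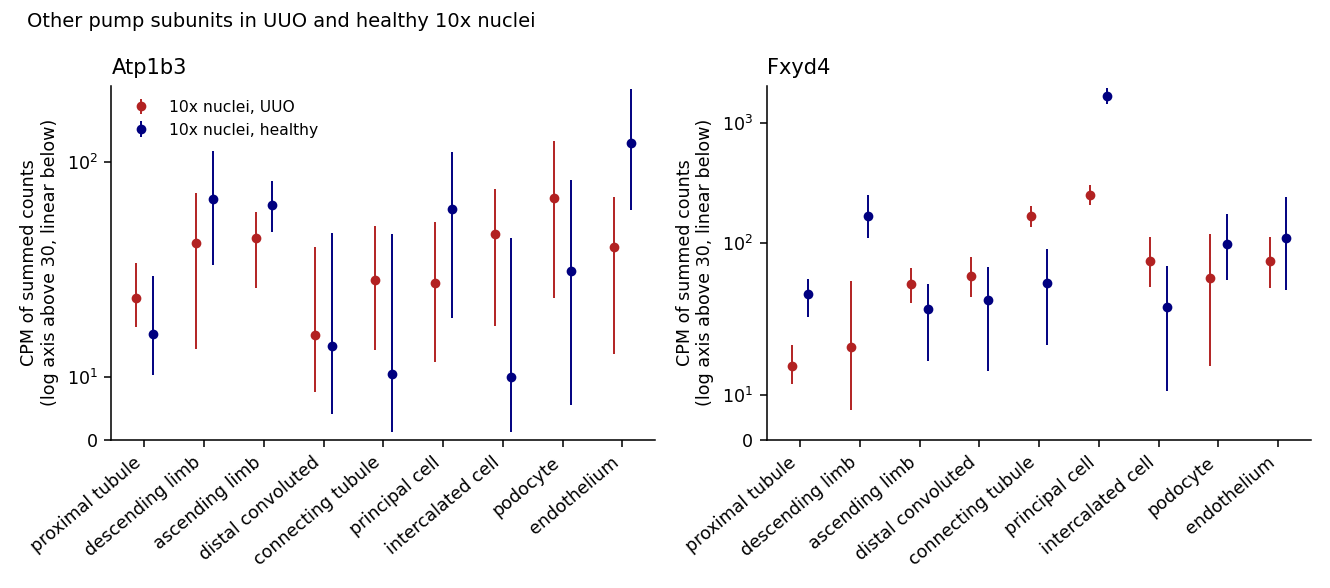
CPM of Atp1b3 (left) and Fxyd4 (right) by cell class in UUO and healthy 10x nuclei, with exact Poisson intervals, on an axis that is log above 30 and linear below. Fxyd4 has 250.5 CPM in UUO and 1674 CPM in healthy 10x principal cells, and 168 CPM in UUO and 46.7 CPM in healthy 10x connecting tubule.

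Fxyd4 had ratios of opposite sign in neighbouring segments. Principal cells had 250.5 CPM in UUO (111 counts) and 1674 CPM in healthy 10x (191 counts), a log2 ratio of -2.74 (-3.09 to -2.40). The connecting tubule had 168 CPM in UUO (99 counts) and 46.7 CPM in healthy 10x (9 counts), a log2 ratio of 1.84 (0.86 to 3.01), where 24.9% of genes were at least 2-fold higher. Endothelium had 70.9 CPM in UUO (18 counts) and 111 CPM in healthy 10x (6 counts), and both principal cell values lay above it. The healthy connecting tubule was not above the endothelial level, and these few counts do not order them further. The principal cell marker list in UUO was likewise higher in the connecting tubule label than in the principal cell label, and the share of mixed labels in this result was not tested.

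Most genes of apical sodium entry that could be measured were also lower in UUO. Of 12 genes of apical sodium entry, 11 were measured in the proximal tubule. There 9 were at least 2-fold lower in UUO, beside 20.7% of all genes, and none at least 2-fold higher, beside 14.6% of all genes. The median log2 ratio of the list was -3.78 there. In cells outside the tubule 4 of 4 measured genes were at least 2-fold lower in endothelium (median -4.88) and 5 of 5 in podocytes (median -5.47). Genes under the count minimum over the UUO and healthy sums were left out there, so these shares do not describe the whole list. The medians rest on other sets of genes than the proximal tubule median and cannot be ranked against it. Of all genes, 11.7% in endothelium and 15.9% in podocytes were at least 2-fold lower. In the distal convoluted tubule 5 of 8 were at least 2-fold lower and 2, Scnn1b and Scnn1g, at least 2-fold higher. Of all genes there, 14.4% were at least 2-fold lower and 20.9% at least 2-fold higher. Slc34a1, the main phosphate transporter of the proximal tubule, had 226 CPM in UUO and 8639 CPM in healthy 10x, and Slc9a3, the sodium-proton exchanger, 54.7 CPM in UUO and 428 CPM in healthy 10x. Slc5a12, a sodium-coupled lactate transporter named after its values were seen, had 216 CPM in UUO and 197 CPM in healthy 10x. Slc12a1, the cotransporter of the thick limb, had 1277 CPM in UUO and 15400 CPM in healthy 10x in the ascending limb. Slc12a3, the thiazide-sensitive cotransporter, had 1026 CPM in UUO and 13544 CPM in healthy 10x in the distal convoluted tubule. Counts in the proximal tubule of genes known from other segments were also lower in UUO, such as Slc12a1 with 26.1 CPM in UUO and 1249 CPM in healthy 10x. It, Slc12a3, Scnn1a, Scnn1b and Scnn1g are all among the 9.

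Basolateral potassium and chloride channels, which recycle what the pump takes up, had 6 of 8 measured genes at least 2-fold lower in the proximal tubule, 6 of 8 in the ascending limb and 4 of 7 in the distal convoluted tubule, and none higher. Of those in the proximal tubule, Kcnj1 and Kcnj10 are known from later segments, and Kcnj1 (ROMK) is known as an apical channel. Over all genes 20.7% in the proximal tubule, 17.2% in the ascending limb and 14.4% in the distal convoluted tubule were at least 2-fold lower. At least 2-fold higher were 14.6%, 16% and 20.9% in the same order. Kcnj15, a potassium channel, had 85.0 CPM in UUO and 653 CPM in healthy 10x in the proximal tubule. Kcnj16, which pairs with it and with Kcnj10, had 1230 CPM in UUO and 1143 CPM in healthy 10x in the proximal tubule and 1412 CPM in UUO and 940 CPM in healthy 10x in the ascending limb, both short of 2-fold.

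Regulators were counted by class. In the proximal tubule 4 of 11 (Esrrb, Hsd11b2, Sgk1 and Wnk4) were at least 2-fold lower in UUO and none higher. Of all genes in that class, 20.7% were at least 2-fold lower and 14.6% at least 2-fold higher. In the ascending limb 8 of 11 were lower, beside 17.2% of all genes. Esrrb, a nuclear receptor, had 65.6 CPM in UUO and 1235 CPM in healthy 10x in the ascending limb, and Wnk4, a kinase that acts on distal salt transport, 22.6 CPM in UUO and 438 CPM in healthy 10x. Of 4 other P-type ATPases measured in the ascending limb, 2 were at least 2-fold lower and 1 higher. The higher one was the calcium pump Atp2b1, with 331 CPM in UUO and 87.7 CPM in healthy 10x (log2 ratio 1.92, 1.50 to 2.36), where 16% of genes were at least 2-fold higher. In the connecting tubule 1 of 5 was higher and 4 lower, beside 24.9% and 13.2% of all genes. In endothelium 2 of 3 were higher and 0 lower, beside 777 of 3418 genes higher. In the label PT(S3) 1 of 2 was higher, beside 1547 of 7647 genes.

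Inside the proximal tubule class, marker lists of the other segments summed lower in UUO, except that of the descending limb, with 196 CPM in UUO and 104 CPM in healthy 10x. Ascending limb markers summed to 41.5 CPM in UUO and 1852 CPM in healthy 10x, connecting tubule markers to 51.2 CPM in UUO and 1156 CPM in healthy 10x, principal cell markers to 9.63 CPM in UUO and 147 CPM in healthy 10x, intercalated cell markers to 23.7 CPM in UUO and 73.3 CPM in healthy 10x, and distal convoluted tubule markers to 750.4 CPM in UUO and 951 CPM in healthy 10x. Of cells outside the tubule, in the same class, the 4 endothelial markers summed to 69.9 CPM in UUO and 77.5 CPM in healthy 10x, the 4 fibroblast markers to 19.0 CPM in UUO and 2.53 CPM in healthy 10x, where Pdgfrb, Col1a1 and Dcn were at 0, and the 4 macrophage markers to 54.7 CPM in UUO and 72.4 CPM in healthy 10x, where C1qa and C1qb were at 0. The proximal tubule's own 5 markers summed to 925 CPM in UUO and 12980 CPM in healthy 10x. The part of these in the members' differences was not tested. Fewer transcripts per nucleus and a different mix of nuclei under one label cannot be told apart in these sums.

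Whole cells held more of both members than nuclei. In the proximal tubule Drop-seq cells had 2374 CPM of Atp1b1 and sNucDrop-seq nuclei 1096 CPM, a log2 ratio of 1.11 (1.06 to 1.17), and Drop-seq cells had 3833 CPM of Fxyd2 and sNucDrop-seq nuclei 412 CPM, a log2 ratio of 3.22 (3.13 to 3.30). There 17.9% of genes passed 2-fold upward, and 98.5% of genes had a ratio at or below that of Fxyd2. In the distal convoluted tubule the ratios were 2.31 for Atp1b1 and 3.66 for Fxyd2, and 28% of genes there passed 2-fold upward. Method, run and compartment cannot be told apart between these 2 libraries.

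Nucleus libraries also differed among themselves. In the proximal tubule healthy 10x nuclei had 199 CPM of Atp1b1 and sNucDrop-seq nuclei 1096 CPM, a log2 ratio of -2.46 (-2.66 to -2.27) in a comparison where 20.2% of genes were at least 2-fold lower in 10x. That difference between healthy nucleus libraries is as large as the UUO difference of Atp1b1 within 10x. Fxyd2 differed less between them, with 248 CPM in healthy 10x and 412 CPM in sNucDrop-seq (-0.73, -0.92 to -0.55).

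Genes whose healthy 10x levels across 11 labels most resembled those of Atp1b1, by Pearson r of log2(CPM + 10) among 6951 genes, were Ppp1r1a (0.88), Wnk4 (0.87), BC034090 (0.87), Dmtn (0.86), Rint1 (0.85) and Ndrg2 (0.84). Fxyd2 came at rank 72 with r = 0.73. Over the same labels Wnk4 had r = 0.82 in DroNc-seq, 0.52 in sNucDrop-seq and 0.80 in Drop-seq, whereas Rint1 had 0.18, -0.15 and 0.31. For Fxyd2 the closest were Timm23 (0.89), Bckdhb (0.88), Dst (0.88), Scml4 (0.88), Ank3 (0.87) and Pfkp (0.87), and Timm23 had r = -0.41 in Drop-seq. Fxyd4 ran against Fxyd2 in all 4 healthy libraries, with r from -0.70 in Drop-seq to -0.29 in healthy 10x. The labels were those with at least 20 healthy 10x nuclei. In Drop-seq they include Pod with 2 cells, LH(DL) with 16 and IC-B, also under that minimum.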

How the data were processed

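UMI counts per gene and barcode were read from 2 tables deposited by the authors, for 5 libraries and 17542 barcodes in all. The deposited readme names zUMIs for the counts. STAR 2.5.3a and the mm10 build are listed, per the submitters' processing notes. Intron counting, strand, annotation and filters: not given in the sources used here. Counts were summed over the authors' labels, and scaled to CPM of each sum's UMIs. Sums carry exact Poisson, shares Clopper-Pearson and log2 ratios conditional exact 95% intervals, which cover counting error only. Genes entered a comparison when present in both tables or libraries with 20 or more counts over its 2 sums. A difference was called at 2-fold, with no test, since each group is 1 library. UMIs were thinned without replacement to 500 per barcode with seed 1. The UUO labels DL and tAL were set beside LH(DL), and TAL beside LH(AL), and the macrophage label, which has a broken character in the deposited file, was kept as such. No doublet caller was run. An alternative left out barcodes above 3 class medians of UMIs. Barcode sequences shared between libraries numbered 23 for UUO and healthy 10x and 1 for sNucDrop-seq and Drop-seq. Members and gene lists were chosen with earlier results of these data known. Some genes of the lists are not reported here. Named genes were the pump family and, in 4 other lists, members at least 2-fold apart or among the 4 of largest mean CPM, with Slc5a12 added after its values were seen. The 6 most similar genes per member had at least 20 CPM on average. The ratio calculation was tested on simulated data. Python 3.11.15, scipy 1.17.1 and edgeR 4.0.16 were used, edgeR for TMM scaling only. Promoter letters came from RefSeq and gene places from GENCODE M21.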

Additional observations from a re-analysis of the deposited data

Results flagged for a closer look

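Fxyd4, the collecting duct FXYD subunit, differed from healthy 10x in opposite directions in different tubule classes of UUO. Its log2 ratio of UUO over healthy 10x was 1.84 in the connecting tubule (99 counts in UUO and 9 in healthy 10x), against -1.20 in the proximal tubule (60 counts in UUO and 45 in healthy 10x), -3.02 in the descending limb (5 counts in UUO and 25 in healthy 10x) and -2.74 in principal cells (111 counts in UUO and 191 in healthy 10x). The intervals of the connecting tubule and of the other 3 classes lie on opposite sides of 0. Intercalated cells (1.26), the ascending limb (0.63) and the distal convoluted tubule (0.68) were also above 0, with intervals across 0. The healthy proximal tubule (37.9 CPM) and connecting tubule (46.7 CPM) levels were not above the 111 CPM of healthy 10x endothelium, which rests on 6 counts. The difference between classes was not tested.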

How the results depend on the processing

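Values under alternatives were called kept when they held their direction and lay within the counting interval of the main value. Counts of tubule classes, which have no interval, were called kept within a fixed factor of the main count. Of 230 values, 182 were kept, 40 moved by more and 8 turned their direction. All 8 came from levels set relative to endothelium and podocyte of the same library, a scale chosen after seeing the data. On it the Atp1b1 difference was 0.92 in the proximal tubule, 1.27 in the descending limb, 0.074 in the ascending limb, 0.53 in the distal convoluted tubule, 0.47 in the connecting tubule, 0.23 in principal cells and 1.31 in intercalated cells, and that of Fxyd2 0.026 in the descending limb and -0.23 in the proximal tubule. The number of tubule classes at least 2-fold lower became 0 for Atp1b1 and 2 for Fxyd2. On the plain UUO over healthy 10x ratios, a minimum of 100 counts gave 3 of 3 classes for Atp1b1 and 4 of 4 for Fxyd2. With another healthy nucleus library as the comparison, the proximal tubule ratio was -4.72 (sNucDrop-seq) or -4.16 (DroNc-seq) for Atp1b1 and -2.89 (sNucDrop-seq) for Fxyd2. Distal convoluted over proximal tubule was 0.30 within sNucDrop-seq and 1.49 within Drop-seq for Atp1b1, and 0.44 within sNucDrop-seq for Fxyd2. The cause of these shifts was not tested. TMM shifted UUO over healthy 10x by -0.03 to 0.30. No paired analysis was possible because each group is 1 library.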
